A study of Mus musculus with 16 samples.

Results

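The 38 genes described here serve protein folding and the responses to misfolded protein, and were taken by symbol from the 13085 genes of a table of mouse monocyte RNA. They fall into 5 groups by known role: 18 chaperones and degradation factors of the endoplasmic reticulum (ER), 4 sensors and transducers of the unfolded protein response, 6 genes of the ATF4 and CHOP arm, 8 cytosolic heat shock genes and 2 genes of the mitochondrial chaperonin. All 38 were in the table, and all 38 passed the filter on low levels (1 CPM, a read count per 1000000 of the scaled library size, reached in 2 or more libraries), as did 12782 genes in all.

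Proteins that enter the ER fold with the help of chaperones such as BiP, and unfolded protein in the ER is sensed by IRE1, ATF6 and PERK. IRE1 splices the mRNA of the transcription factor XBP1, ATF6 is cut to release a transcription factor, and both raise ER chaperones. PERK phosphorylates eIF2α, which lowers translation in general and raises that of ATF4, and other kinases that sense amino acid shortage, double-stranded RNA or heme feed into the same step. The cytosol has a separate program, in which HSF1 raises heat shock proteins. In the immune system, XBP1 is best known for its part in plasma cells, which secrete large amounts of protein.

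The RNA came from monocytes of NFAM1+/+ and NFAM1-/- mice of the strain C57BL/6, kept in culture for 6 or 24 h, either unstimulated or given IFN-γ together with 1 µg/mL of MegaCD40L, an oligomeric ligand of CD40. The NFAM1-/- line carries a CRISPR deletion of exons 2 and 3 made in zygotes, and both genotypes were bred from heterozygous parents. Each combination of time, stimulus and genotype had 2 libraries, so each of the 4 conditions of time and stimulus had 4. Ages are not in the sources used here. The labels name the cells as blood monocytes and the methods take mouse monocytes from bone marrow, and the labels and the methods give different doses of IFN-γ. The study drew its RNA from fewer mice of each genotype than there are libraries, so some libraries share a mouse, and the labels do not say which. The p-values therefore measure the spread between these libraries. For 4 libraries of the 24 h cultures, numbered 44, 46, 56 and 58, the genotype in the title is not that in the characteristics. Libraries are grouped by the genotype of the title here. The comparisons of stimulus and of time use all 4 libraries of a condition and do not need the genotype.

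The libraries held 48295939 to 88514341 recovered reads on the listed genes. The ratio of these reads to the scaled library size behind the deposited values lay between 0.756 and 0.788 without stimulus, between 1.24 and 1.32 for the stimulus at 6 h and between 0.970 and 0.997 for the stimulus at 24 h. The scaling moved with the stimulus. As deposited, the median log2 change with the stimulus over all genes tested was -0.13 at 6 h and 0.01 at 24 h, and it was -0.86 and -0.33 when total reads set the scale. Scaling to total reads moves the log2 change of every gene in a comparison by the same amount. A sign that turns with it therefore leaves the order of the genes as it was. Irf1, an interferon target, was 38.6 to 77.1 CPM in unstimulated and 2645 to 3902 CPM in stimulated libraries. The 7 monocyte markers summed to 21355 to 29306 CPM in unstimulated and 7977 to 11411 CPM in stimulated libraries. Lyz2 carried most of the sum in unstimulated libraries, at 15690 to 23256 CPM, and Ly6c2 and Fcgr1 were higher with the stimulus. Ly6c2 was at 345 to 530.2 CPM without and 2125 to 2965 CPM with it, and Fcgr1 at 28.0 to 107 CPM without and 121 to 759.5 CPM with it. Neutrophil markers summed to 289 to 502 CPM in unstimulated libraries at 24 h and to 37.1 to 172 CPM in the other libraries. The same unstimulated libraries at 24 h had the highest sums of 4 dendritic cell markers, at 85.2 to 176 CPM against 19.3 to 38.7 CPM, and of the B cell markers Cd79a and Cd79b, at 6.54 to 17.4 CPM against 1.04 to 4.79 CPM. Flt3 carried most of the dendritic sum there, at 67.3 to 145 CPM, and Cd79b most of the B cell sum, at 5.96 to 16.4 CPM. Camp, Ltf and Ngp carried most of the neutrophil sum. Mpo, Elane, Zbtb46 and Cd79a overlapped between the unstimulated libraries at 6 and 24 h. Xcr1 was lower in those at 24 h, at 0.298 to 0.708 against 0.774 to 1.31 CPM. None of the T and NK cell markers were in the table, and of 6 plasma cell markers only Jchain and Sdc1 were, at a sum of 3.82 to 47.9 CPM. The part of other cells in the results was not tested. In bulk RNA a lower level per cell and fewer cells of a type cannot be told apart.

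The groups differ in the letters before their gene starts, which are shown here because an element of ER stress was found only in the ER group among the matched promoters. Promoters of RefSeq on GRCm38.p6, 250 bases before to 50 after the start, were matched for 31 of the 38 genes as 34 promoters. The ER stress element, written CCAAT, 9 bases, CCACG and searched on both strands, was in 39 of 32851 promoters (0.119%) and in 7 of the 16 promoters of the ER group (43.8%). It was in none of the other groups, which had only 3 to 6 promoters each. The ATF4 element TTGCATCA was in 294 promoters (0.895%), among them those of Chac1 and Herpud1. Chac1 was the only 1 of the 6 promoters of the ATF4 and CHOP arm that held it. The heat shock element, written GAA, 2 bases, TTC, 2 bases, GAA, was in 198 promoters (0.603%), among them the promoter region shared by Hspd1 and Hspe1 and, after the start, those of Hsph1. Of the 6 promoters of the cytosolic heat shock group 2 held it, both of Hsph1, and those of Hspa1a, Hspa1b and Dnajb1 did not. A match is a run of letters and not a bound site, and only these exact letters were searched. Capitals mark the bases of the element, which reads CGTGG, 9 bases, ATTGG where it lies on the other strand, and each line runs 5′ to 3′ on the strand of the gene.
Hspa5, chr2:34772005-34772063, plus strand: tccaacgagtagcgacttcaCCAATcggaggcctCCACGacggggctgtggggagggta
Hsp90b1, chr10:86705618-86705676, minus strand: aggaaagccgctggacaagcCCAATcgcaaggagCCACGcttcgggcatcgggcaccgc
Hsp90b1, chr10:86705513-86705571, minus strand: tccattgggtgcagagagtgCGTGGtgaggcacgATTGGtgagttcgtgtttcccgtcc
Calr, chr8:84847055-84847113, minus strand: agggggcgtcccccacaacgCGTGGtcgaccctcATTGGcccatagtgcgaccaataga
Canx, chr11:50325780-50325838, minus strand: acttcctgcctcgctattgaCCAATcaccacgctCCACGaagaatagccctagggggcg
Creld2, chr15:88819500-88819558, plus strand: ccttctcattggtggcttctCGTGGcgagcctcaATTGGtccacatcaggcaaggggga
Dnajc3, chr14:118937807-118937865, plus strand: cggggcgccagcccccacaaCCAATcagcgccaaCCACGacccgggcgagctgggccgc
Pdia6, chr12:17266471-17266529, plus strand: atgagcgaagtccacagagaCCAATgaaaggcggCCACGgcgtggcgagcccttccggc
Chac1, ATF4 element, chr2:119351029-119351076, plus strand: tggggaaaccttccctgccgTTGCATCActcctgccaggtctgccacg
Herpud1, ATF4 element, chr8:94386297-94386344, plus strand: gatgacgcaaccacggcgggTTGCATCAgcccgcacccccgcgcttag
Hspe1, 2 overlapping heat shock elements, chr1:55088039-55088096, plus strand: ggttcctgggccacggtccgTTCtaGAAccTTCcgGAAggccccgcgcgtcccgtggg

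The 5 groups did not move together with IFN-γ plus CD40L. At 6 h, 7 of the 38 genes rose and 8 fell by at least 2-fold at an adjusted p under 0.05 (limma, Benjamini-Hochberg over all genes tested), where 19.1% of all genes tested were called higher and 20.6% lower. At 24 h, 7 rose and 3 fell, where 14.6% of all genes were called higher and 18.7% lower. Of the 7 that rose, 5 belonged to the 6 genes of the ATF4 and CHOP arm at both times, and the other 2 were the heat shock genes Hspa1a and Hspa1b. No ER gene and no sensor rose. With total reads as the scale the counts were 2 higher and 15 lower at 6 h, where 12.2 and 43.5% of all genes were called, and 6 higher and 9 lower at 24 h, where 11.2 and 25.7% were. Quantile normalization gave 6 and 12 at 6 h (17 and 21.2% of all genes) and 7 and 9 at 24 h (15.1 and 17.5%). The map of all 38 genes by library shows the 6 genes of the ATF4 and CHOP arm above their unstimulated level in all 4 stimulated libraries at 6 h.

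**Figure D1:**
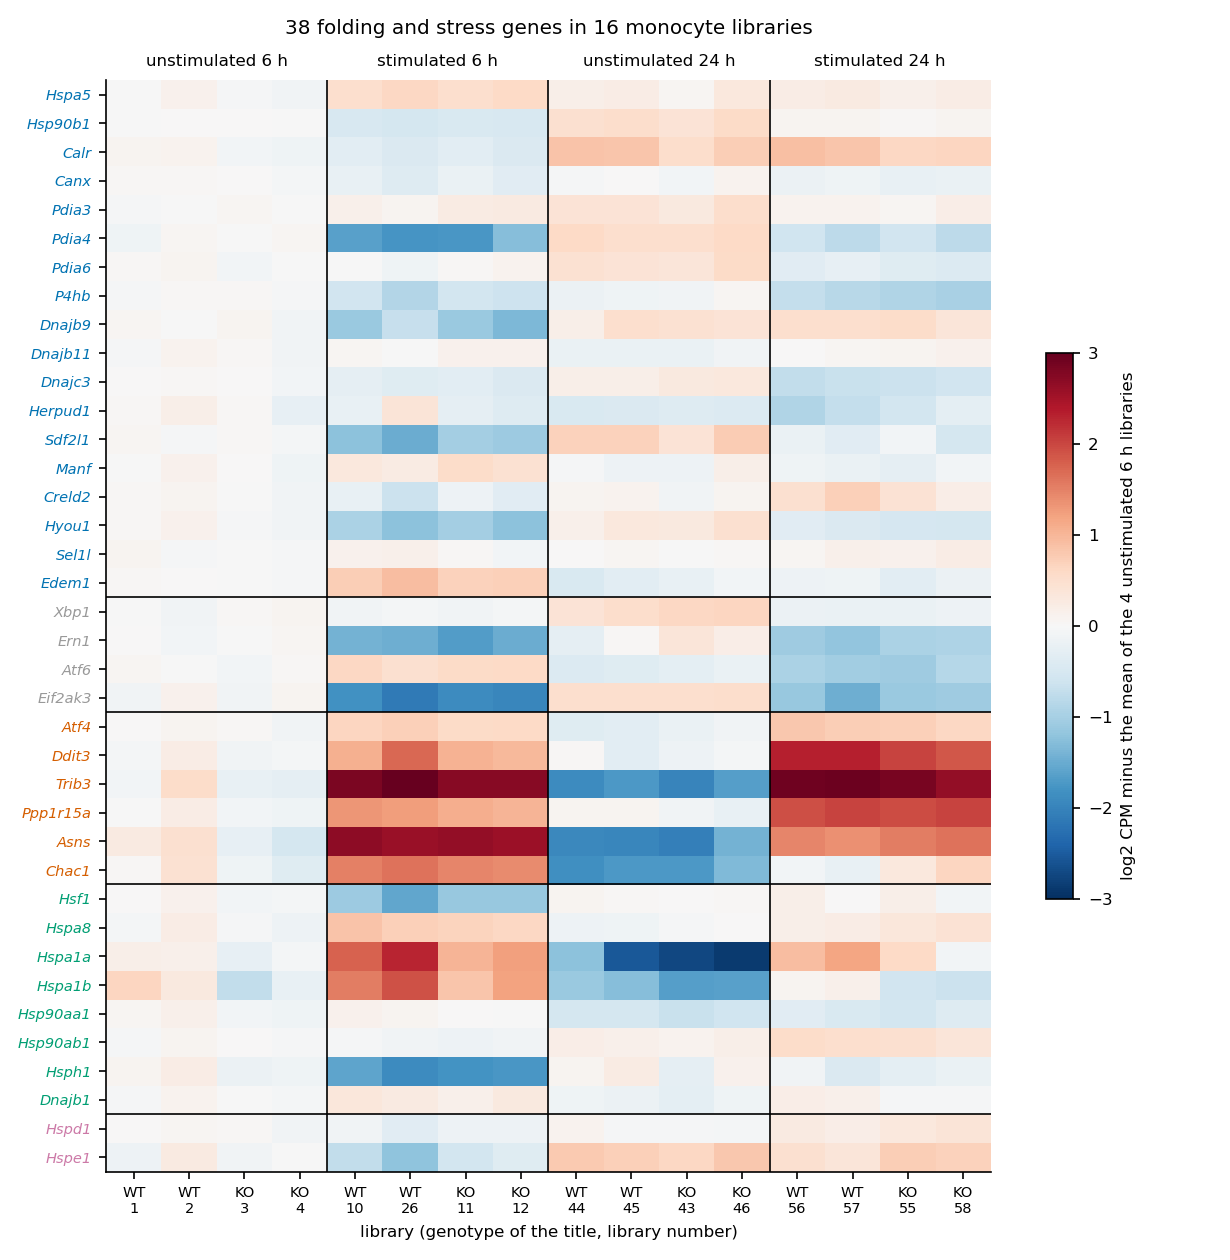
Log2 CPM of each of the 38 genes (rows, by group, in the order ER, sensors, ATF4 and CHOP, heat shock, mitochondrial) in each of the 16 libraries (columns), minus the gene's mean over the 4 unstimulated libraries at 6 h. Red is higher and blue lower, and the colours end at 3 in either direction. With the stimulus at 6 h Trib3 stands 2.84 and Asns 2.62 above this level on average, and Eif2ak3 (-1.94) and Hsph1 (-1.76) are blue.

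In the ATF4 and CHOP arm, 5 of 6 genes rose at 6 h and 5 of 6 at 24 h, where 19.1 and 14.6% of all genes were called higher. The median log2 change was 1.36 and 2.15, against -0.13 and 0.01 over all genes tested. The median of the arm stayed above 0 under each scaling tried, at 0.63 to 1.53 at 6 h and 1.82 to 2.16 at 24 h. Values below are given for the libraries titled NFAM1+/+ before those titled NFAM1-/-, in CPM.

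Trib3, a pseudokinase that ATF4 and CHOP induce and that restrains them, had the largest change of the 38 genes. The 6 h libraries held 13.3, 20.5, 12.1 and 11.7 CPM without stimulus and 100.0, 120.3, 93.0 and 92.5 CPM with it. At 24 h it was at 3.79, 4.25, 3.55 and 4.45 CPM without stimulus and 107, 109, 100.5 and 86.7 CPM with it. The stimulated libraries were alike at both times, and the unstimulated libraries were lower at 24 h than at 6 h with no overlap. The rise was 7.18-fold at 6 h (log2 2.84, SE 0.12, adjusted p = 3.28e-11) and 25.1-fold at 24 h (log2 4.65, SE 0.12, adjusted p = 2.76e-13).

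Asns, asparagine synthetase and a standard target of ATF4 when amino acids are short, followed the same order of conditions. The 6 h libraries held 68.0, 79.7, 48.2 and 39.5 CPM without stimulus and 363, 342, 351 and 338 CPM with it. The 24 h libraries held 14.9, 14.6, 13.7 and 21.2 CPM without stimulus and 156, 148, 164 and 176 CPM with it. No stimulated library overlapped an unstimulated one at either time. It rose 6.14-fold at 6 h (log2 2.62, SE 0.11, adjusted p = 2.72e-11) and 10.1-fold at 24 h (log2 3.34, SE 0.11, adjusted p = 2.81e-12).

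Ddit3 encodes CHOP, the transcription factor tied to cell death under long ER stress. The 6 h libraries held 17.6, 21.5, 17 and 17.7 CPM without stimulus and 38.8, 60.8, 38 and 36.0 CPM with it, where library 26 held the 60.8. Its values at 24 h were 18.8, 14.8, 16.6 and 17.6 CPM without stimulus and 93.0, 93.0, 75.3 and 66.9 CPM with it. The groups did not overlap at either time, and the rise was 2.31-fold at 6 h (adjusted p = 4.70e-07) and 4.82-fold at 24 h (adjusted p = 5.71e-10). With total reads as the scale, the change at 6 h was a log2 value of 0.47 and was not called. In an annotation of GRCm38, 81 of the exonic nucleotides of Ddit3 also belong to Mars or Gm4189 on the other strand, whose reads this unstranded library type cannot separate.

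Ppp1r15a encodes GADD34, which brings the phosphatase that reverses eIF2α phosphorylation. At 6 h it was at 38.5, 45.0, 36.5 and 35.6 CPM without stimulus and 96.9, 91.9, 82.7 and 78.9 CPM with it. After 24 h it stood at 40.8, 41.3, 35.8 and 33.0 CPM without stimulus and 147, 159, 152 and 158 CPM with it. It rose 2.25-fold at 6 h (adjusted p = 1.56e-10) and 4.10-fold at 24 h (adjusted p = 6.16e-13), and the call at 6 h was lost under quantile normalization (log2 0.94) and scaling to total reads (log2 0.44).

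Chac1, a glutathione-degrading enzyme and a target of ATF4, was at 9.16 to 16.1 CPM without and 31.6 to 36.5 CPM with the stimulus at 6 h. By 24 h the values were 3.32 to 4.73 CPM without and 10.1 to 18.4 CPM with it. It rose 2.84-fold at 6 h (adjusted p = 4.35e-08) and 3.52-fold at 24 h (adjusted p = 6.91e-09). Both unstimulated and stimulated libraries were lower at 24 h than at 6 h. With total reads as the scale, the change at 6 h was a log2 value of 0.78 and was not called.

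Atf4 itself, whose protein level is set mainly by translation, was at 342, 364, 348 and 316 CPM without stimulus and 536, 561, 508 and 520.2 CPM with it at 6 h. At 24 h it was at 267, 274, 299.6 and 321 CPM without stimulus and 599, 572, 563 and 524 CPM with it. All stimulated libraries lay above all unstimulated ones at each time, by 1.55-fold at 6 h (adjusted p = 3.19e-08) and 1.95-fold at 24 h (adjusted p = 3.96e-10), both under the 2-fold minimum. At 6 h the sign turned with scaling to total reads (log2 -0.10). Per kilobase of exon, Atf4 was the most abundant gene of its arm in each condition, at means of 123 to 239 CPM per kb, and the order of the others was not fixed. Without stimulus Trib3 had the lowest mean level, at 6.79 CPM per kb at 6 h and 1.89 at 24 h, and its libraries overlapped those of Chac1 (7.36 and 2.32). With stimulus Chac1 was lowest (20.5 and 8.32) and Asns stood next to Atf4 (127 and 58.8). Asns overlapped Ppp1r15a in the unstimulated libraries at 6 h and the stimulated libraries at 24 h, and lay below Ppp1r15a (12.8) and Ddit3 (9.88) in the unstimulated libraries at 24 h, at 5.89 CPM per kb.

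**Figure D2:**
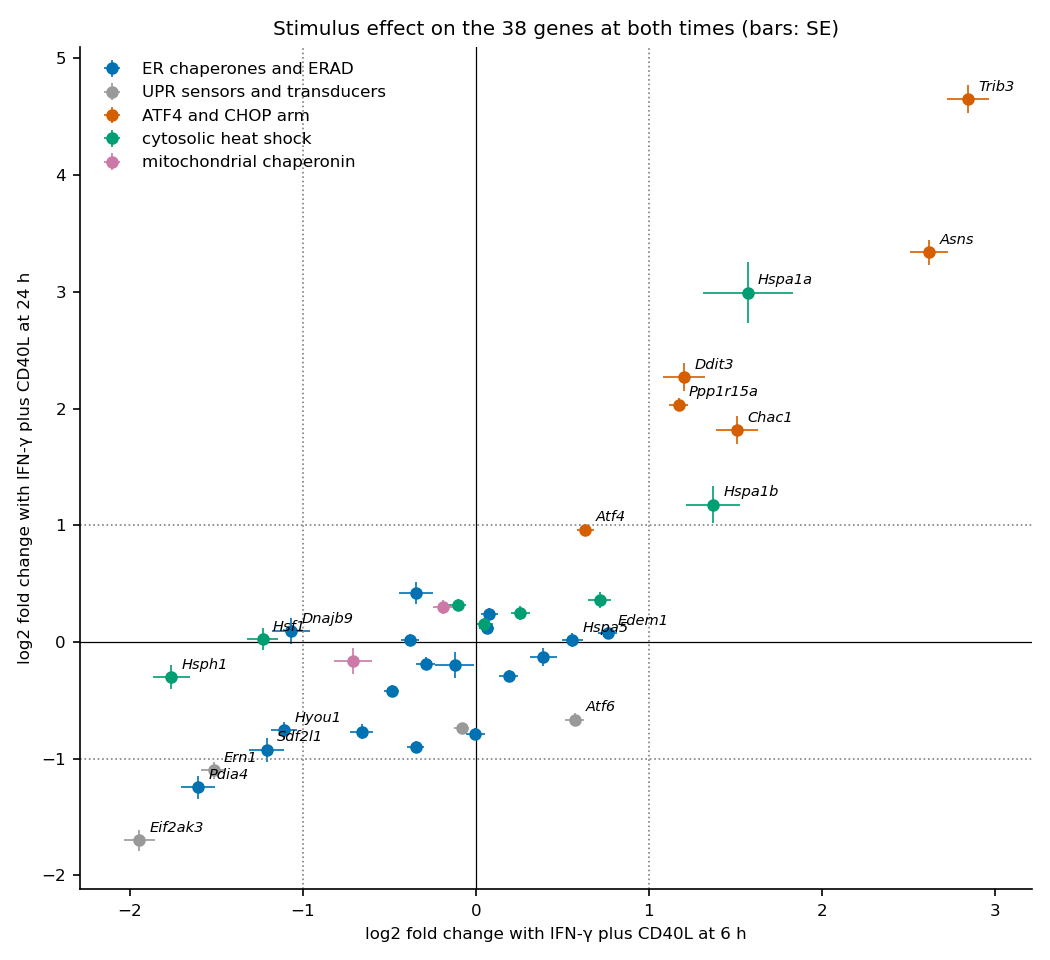
Log2 fold change with IFN-γ plus CD40L at 6 h (x axis) and at 24 h (y axis) for the 38 genes, coloured by group, with bars for 1 SE from limma. Dotted lines mark the 2-fold minimum. The ATF4 and CHOP genes lie at the upper right, up to Trib3 at 2.84 and 4.65, the ER genes spread from Pdia4 at -1.61 and -1.24 to Edem1 at 0.76 and 0.08, and Hsf1, Hsph1 and Dnajb9 lie left of the dotted line at 6 h and between -0.30 and 0.09 at 24 h.

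Of the 4 sensors and transducers none rose and 2 fell at each time, with a median log2 change of -0.80 at 6 h and -0.92 at 24 h. The share of all genes called lower was 20.6% at 6 h and 18.7% at 24 h. Eif2ak3, with the largest fall of the 38 genes at both times, encodes PERK, the kinase that acts upstream of ATF4 in ER stress. It was at 31.3, 36.8, 31.7 and 36.0 CPM without stimulus and 9.64, 7.80, 9.18 and 8.72 CPM with it at 6 h. The 24 h libraries held 47.7, 47.8, 47.7 and 48.7 CPM without stimulus and 15.3, 12.3, 15.7 and 16.2 CPM with it. It fell by 1.94 on the log2 scale at 6 h (SE 0.09, adjusted p = 1.03e-10) and by 1.70 at 24 h (SE 0.09, adjusted p = 5.97e-10), and the libraries did not overlap. Of its exonic nucleotides, 485 are shared with Gm43292 on the other strand.

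Ern1, which encodes the sensor IRE1α, was at 82.2, 77.7, 81.2 and 85.6 CPM without stimulus and 30.5, 29.6, 25.5 and 29.0 CPM with it at 6 h. Its values at 24 h were 67.3, 83.5, 106 and 93.3 CPM without stimulus and 39.3, 36.2, 42.6 and 43.3 CPM with it. It fell 2.86-fold at 6 h (adjusted p = 1.31e-10) and 2.14-fold at 24 h (adjusted p = 5.77e-09). The unstimulated libraries at 24 h were the most spread, and no stimulated library reached the lowest of them.

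Atf6, the third sensor, was on different sides at the 2 times. At 6 h it was at 180.3, 170.0, 163 and 177 CPM without stimulus and 265, 241, 259 and 262 CPM with it. After 24 h it stood at 131, 134, 142 and 151 CPM without stimulus and 89.7, 84.2, 82.9 and 94.7 CPM with it. It was 1.49-fold higher at 6 h (adjusted p = 3.01e-07) and 1.59-fold lower at 24 h (adjusted p = 7.32e-08), neither past the 2-fold minimum. The 2 effects differed by a log2 value of -1.24 (SE 0.08, adjusted p = 1.25e-08). With total reads as the scale, the value at 6 h was -0.16 and the difference -0.84, which was not called.

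Xbp1, the transcription factor mRNA that IRE1 splices, was at 126, 119, 131 and 136 CPM without stimulus and 119, 123, 119 and 122 CPM with it at 6 h, and these libraries overlapped. By 24 h the values were 170.0, 183, 197 and 199 CPM without stimulus and 113, 111, 111 and 114 CPM with it, 1.67-fold lower (adjusted p = 1.30e-09) and under the 2-fold minimum. A level per gene does not separate spliced from unspliced Xbp1, so the activity of IRE1 is not measured here. Per kilobase the order was Xbp1 (median over the 16 libraries 37.8 CPM per kb), Atf6 (17.03), Ern1 (6.76) and Eif2ak3 (3.94), and within each of the 4 conditions it was the same with no overlap between neighbours.

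**Figure D3:**
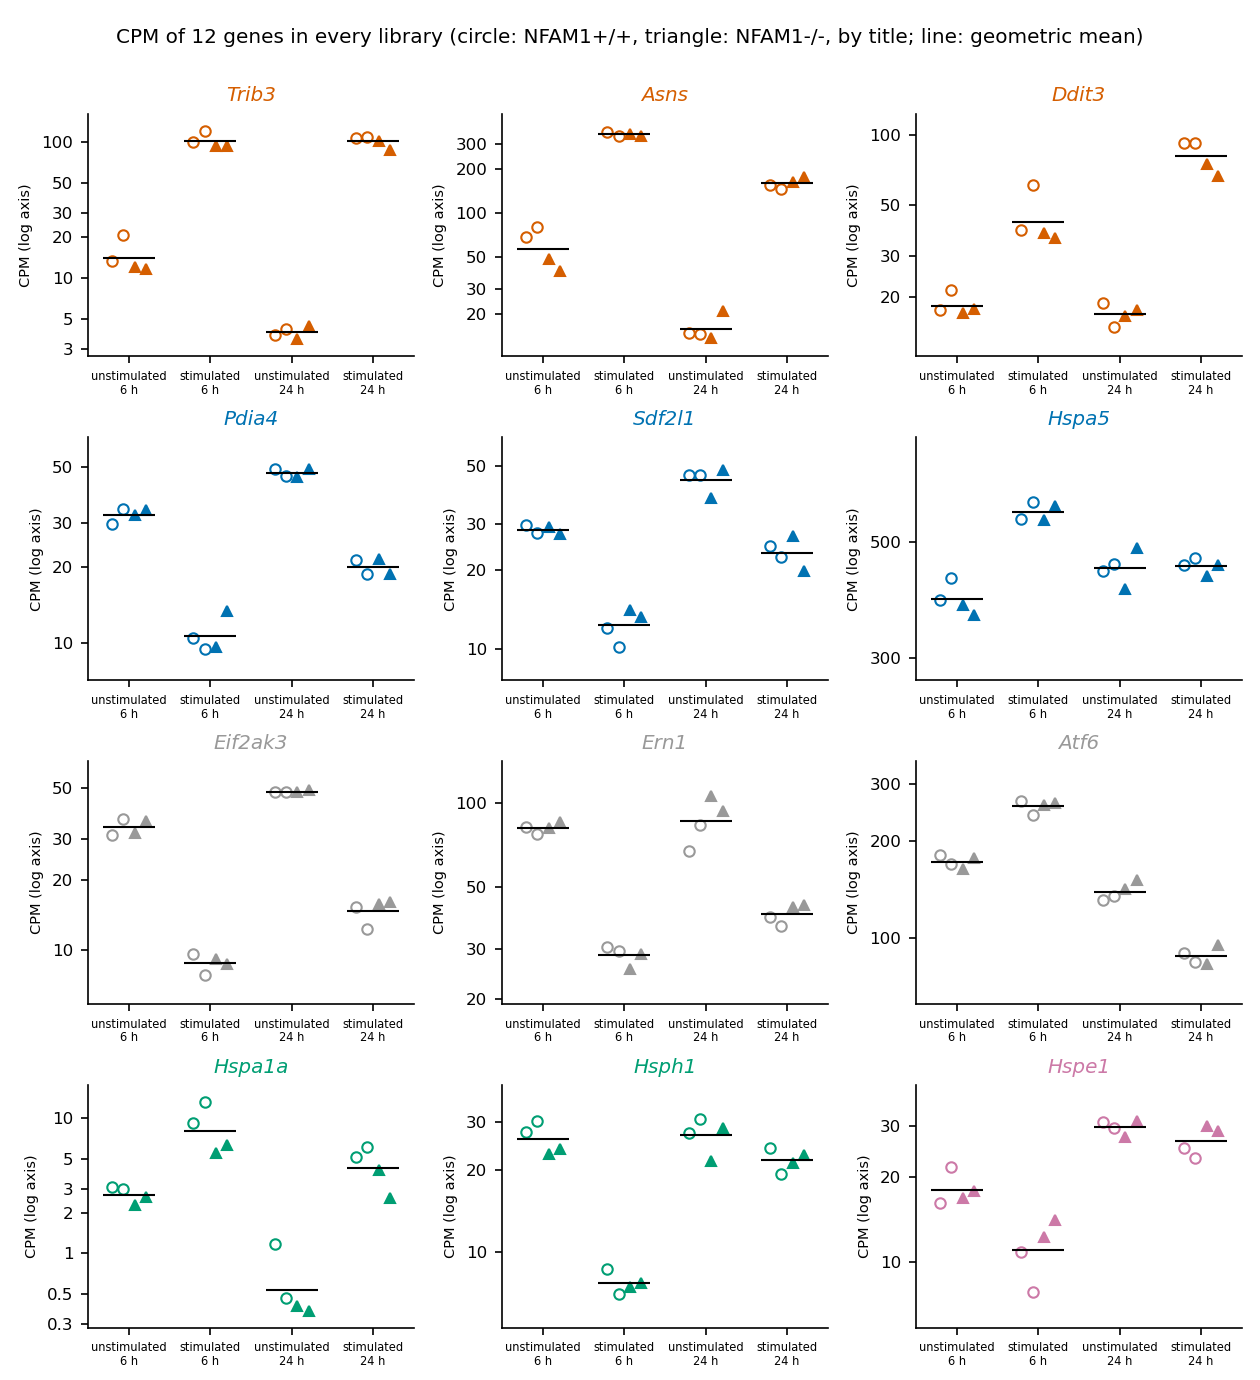
CPM on a log axis of 12 genes in each of the 16 libraries, by condition. Circles are libraries titled NFAM1+/+, triangles those titled NFAM1-/-, and the line is the geometric mean of the 4 libraries. Trib3 reaches 86.7 to 120.3 CPM in the 8 stimulated libraries, Eif2ak3 lies at 7.80 to 16.2 CPM in them against 31.3 to 48.7 CPM in the others, and Hsph1 is low only in the 4 stimulated libraries at 6 h, at 7.003 to 8.66 CPM.

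Among the 18 ER chaperones and degradation factors, none rose and 4 fell at 6 h, and none rose and 1 fell at 24 h. Of all genes tested, 19.1% were called higher and 20.6% lower at 6 h, and 14.6 and 18.7% at 24 h. The median log2 change of the ER genes was -0.32 at 6 h and -0.19 at 24 h. It stayed below 0 under each scaling tried (-0.15 to -1.05 at 6 h, -0.18 to -0.56 at 24 h). Over all genes tested the median at 6 and 24 h was -0.13 and 0.01 as deposited and -0.23 and -0.02 under quantile normalization. It was 0.04 and 0.02 when libraries were centred on medians, and -0.86 and -0.33 with total reads as the scale.

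Pdia4, a protein disulfide isomerase that forms disulfide bonds in the ER, was called at both times. At 6 h it was at 29.8, 33.9, 32.2 and 33.7 CPM without stimulus and 10.5, 9.46, 9.63 and 13.4 CPM with it. At 24 h it was at 49.2, 46.1, 45.9 and 49.2 CPM without stimulus and 21.4, 18.8, 21.6 and 18.7 CPM with it. The groups did not overlap, and it fell 3.04-fold at 6 h (log2 -1.61, SE 0.10, adjusted p = 2.19e-09) and 2.37-fold at 24 h (log2 -1.24, SE 0.10, adjusted p = 4.60e-08).

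Sdf2l1, a partner of the BiP cochaperones of the DNAJB type, was at 29.7, 27.8, 29.1 and 27.4 CPM without stimulus and 12.1, 10.2, 14.1 and 13.3 CPM with it at 6 h. The 24 h libraries held 46.2, 46.2, 37.6 and 48.1 CPM without stimulus and 24.7, 22.5, 27.0 and 19.9 CPM with it. It fell 2.31-fold at 6 h (adjusted p = 7.92e-08) and was 1.90-fold lower at 24 h, under the 2-fold minimum (adjusted p = 1.67e-06).

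Hyou1, a large ER chaperone that exchanges nucleotide on BiP, was at 91.8, 98.0, 87.7 and 84.1 CPM without stimulus and 46.7, 38.2, 44.4 and 38.7 CPM with it at 6 h. Its values at 24 h were 99.8, 112, 109.8 and 125 CPM without stimulus and 70.9, 66.5, 64.0 and 62.4 CPM with it. It fell 2.16-fold at 6 h (adjusted p = 5.22e-09) and was 1.69-fold lower at 24 h (adjusted p = 4.00e-07). The call at 6 h was lost when libraries were centred on their medians (log2 -0.94).

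Dnajb9, a BiP cochaperone that represses IRE1, was at 13, 12.3, 13.1 and 11.5 CPM without stimulus and 5.76, 7.68, 5.78 and 4.90 CPM with it at 6 h. After 24 h it stood at 14.2, 17.5, 17.2 and 16.5 CPM without stimulus and 17.6, 17.5, 18.3 and 16.1 CPM with it, where the groups overlapped. It fell 2.10-fold at 6 h (adjusted p = 6.37e-07), and at 24 h the difference was 1.07-fold (adjusted p = 0.468). The call at 6 h was lost without library 10 (log2 -0.96) and under quantile normalization (log2 -0.80), centring on medians (-0.90) and log2(CPM + 1) (-0.95).

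Of the genes called above, Pdia4, Sdf2l1 and Dnajb9 had no exact match to the ER stress element as written above in their promoter windows. Other forms of the element were not searched. Hyou1, like Manf, had no matched promoter. Of the 7 genes with an exact match, none was called with the stimulus at either time as deposited. When total reads set the scale, Hsp90b1, Calr, Canx, Creld2 and Dnajc3 were called lower at 6 h (log2 -1.02 to -1.22) and Dnajc3 and Pdia6 at 24 h (-1.23 and -1.12). Hspa5, which encodes BiP, was at 386, 428, 379 and 362 CPM without stimulus and 553, 596, 552 and 586 CPM with it at 6 h, 1.47-fold higher with no overlap (adjusted p = 1.07e-06), and with scaling to total reads this turned to a log2 value of -0.17. At 24 h it was 1.01-fold higher (adjusted p = 0.839), with values of 406 to 487 CPM without and 430.2 to 466 CPM with the stimulus. At 6 h the log2 change was -0.49 for Hsp90b1 (GRP94), -0.38 for Calr and -0.29 for Canx, both lectin chaperones of glycoproteins, -0.35 for Dnajc3, -0.34 for Creld2 and -0.00 for Pdia6. At 24 h it was -0.42 for Hsp90b1, 0.02 for Calr, -0.19 for Canx, -0.90 for Dnajc3, 0.42 for Creld2 and -0.79 for Pdia6. Hsp90b1 shares 632 of its exonic nucleotides with 1810014B01Rik on the other strand or Gm15344 and Gm25745 on the same strand.

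Edem1, which takes misfolded glycoproteins toward degradation, had the largest positive value of the ER group at 6 h, 1.70-fold (adjusted p = 1.32e-08), at 324 to 341 CPM without and 532 to 632 CPM with the stimulus, and with scaling to total reads its log2 value went from 0.76 to 0.03. At 24 h its libraries overlapped (1.05-fold, adjusted p = 0.223). Herpud1, an ERAD factor whose promoter holds the ATF4 element, overlapped between the groups at both times (adjusted p = 0.329 and 0.127). The other 5 ER genes, Pdia3, P4hb, Dnajb11, Manf and Sel1l, had log2 changes of -0.66 (P4hb) to 0.39 (Manf) at 6 h and -0.77 (P4hb) to 0.24 (Dnajb11) at 24 h. The positive values of Pdia3, Dnajb11, Manf and Sel1l at 6 h and of Dnajb11 and Sel1l at 24 h turned negative with scaling to total reads. Manf shares 326 exonic nucleotides with 4930524O07Rik or Dcaf1 on the other strand or Rbm15b on the same strand. P4hb, another protein disulfide isomerase, was lower at both times with no overlap, by 1.58-fold and 1.70-fold. Per kilobase Dnajb9 was the least abundant of the group in each condition, at means of 2.37 to 6.82 CPM per kb. The most abundant was P4hb (135) without and Hspa5 (135) with the stimulus at 6 h, and Calr at 24 h (179.7 without and 182 with it), each with no overlap with the next gene.

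The 8 cytosolic heat shock genes were split at 6 h into 2 that rose, 2 that fell and 4 that were not called, and at 24 h 2 rose and none fell. The shares of all genes called higher and lower were 19.1 and 20.6% at 6 h, and 14.6 and 18.7% at 24 h. The median log2 change of the 8 genes was 0.15 at 6 h and 0.28 at 24 h. Both turned negative under quantile normalization (-0.47 and -0.09) and scaling to total reads (-0.58 and -0.05). The direction of this group as a whole thus depended on the scaling. With total reads its median lay above that of all genes (-0.86 at 6 h and -0.33 at 24 h). Under quantile normalization it lay below that of all genes (-0.23 and -0.02).

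Hspa1a and Hspa1b are neighbouring, nearly identical genes for the stress-inducible HSP70, so reads may be split between them in a way the counting decided. Hspa1a was at 3.07, 3.01, 2.28 and 2.59 CPM without stimulus and 9.26, 13.1, 5.49 and 6.34 CPM with it at 6 h. By 24 h the values were 1.16, 0.463, 0.411 and 0.374 CPM without stimulus and 5.16, 6.12, 4.12 and 2.56 CPM with it, where the lowest library held 32 reads. The rise was 2.97-fold at 6 h (log2 1.57, SE 0.26, adjusted p = 7.36e-05) and 7.96-fold at 24 h (log2 2.99, SE 0.26, adjusted p = 1.20e-07). Of the exonic nucleotides of Hspa1a, 564 are shared with Gm20481 on the other strand.

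Hspa1b was at 7.28, 5.65, 2.79 and 3.99 CPM without stimulus and 13.4, 17.3, 8.24 and 10.7 CPM with it at 6 h. At 24 h it was at 2.12, 1.90, 1.46 and 1.49 CPM without stimulus and 4.90, 5.13, 3.09 and 2.97 CPM with it. It rose 2.59-fold at 6 h (adjusted p = 1.94e-06) and 2.26-fold at 24 h (adjusted p = 1.08e-05). Scaled to total reads neither gene was called at 6 h (log2 0.84 for Hspa1a and 0.64 for Hspa1b), and Hspa1b was not called at 24 h (log2 0.84), nor was it there on the log2(CPM + 1) scale (0.85). Per kilobase they were the least abundant of the 8 in 3 conditions, and with the stimulus at 6 h their means of 2.88 and 4.43 CPM per kb lay above those of Hsf1 (2.46) and Hsph1 (1.06), where Hspa1a and Hsf1 overlapped. The lengths take in every annotated exon, 7099 nucleotides for Hsf1 and 7266 for Hsph1, and the reads of the 2 HSP70 genes may be split. This order is therefore approximate.

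Hsf1, the transcription factor of the heat shock response, fell at 6 h. It was at 41.2, 44.9, 38.2 and 39.0 CPM without stimulus and 19.3, 13.8, 18.6 and 18.4 CPM with it, where library 26 held the 13.8. The 24 h libraries held 43.4, 42.0, 40.9 and 41.9 CPM without stimulus and 45.7, 41.3, 46.2 and 38.6 CPM with it, and the groups overlapped. The fall was 2.35-fold at 6 h (adjusted p = 1.91e-08), with a difference of 1.02-fold at 24 h (adjusted p = 0.812).

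Hsph1, an HSP110 that exchanges nucleotide on HSP70 and whose promoters hold the heat shock element, also fell at 6 h and was not called at 24 h. At 6 h it was at 27.4, 30.2, 22.9 and 23.9 CPM without stimulus and 8.66, 7.003, 7.43 and 7.67 CPM with it. Its values at 24 h were 27.4, 30.7, 21.5 and 28.4 CPM without stimulus and 24.0, 19.3, 21.2 and 22.7 CPM with it. It fell 3.38-fold at 6 h (adjusted p = 1.63e-09), and at 24 h it was 1.23-fold lower with overlapping libraries (adjusted p = 0.019).

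The abundant constitutive chaperones were not called. Hspa8, the constitutive HSC70, was 1.64-fold higher at 6 h, at 1016 to 1315 CPM without and 1728 to 2021 CPM with the stimulus, and its sign turned with scaling to total reads (log2 -0.02). The difference at 24 h was 1.28-fold (limma adjusted p = 0.000185). Hspa8 shares 262 exonic nucleotides with Snord14c, Snord14d and Snord14e on the same strand. Hsp90ab1, the constitutive HSP90, differed by 1.07-fold at 6 h (adjusted p = 0.0700) and was 1.25-fold higher at 24 h, where its log2 value of 0.32 turned to -0.013 with scaling to total reads. Hsp90aa1, the inducible HSP90, and Dnajb1, an HSP40 induced by heat, had log2 changes of 0.05 and 0.26 at 6 h and 0.15 and 0.25 at 24 h, and all 4 values turned negative with scaling to total reads. Per kilobase Hspa8 and Hsp90ab1 were the most abundant of the 8, at medians over the 16 libraries of 299.5 and 263 CPM per kb, with Hspa8 above at 6 h and Hsp90ab1 above at 24 h, and overlap in the unstimulated libraries at 6 h and the stimulated libraries at 24 h, against 29.6 for Hsp90aa1 and 16.9 for Dnajb1.

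Hspd1 and Hspe1 encode the HSP60 and HSP10 rings that fold proteins in mitochondria, and neither was called with the stimulus. Hspd1 was at 65.1, 68.0, 66.7 and 60.3 CPM without stimulus and 60.4, 51.0, 58.5 and 58.6 CPM with it at 6 h. After 24 h it stood at 70.1, 63.2, 63.5 and 61.9 CPM without stimulus and 78.2, 74.1, 81.3 and 85.3 CPM with it. These were 1.14-fold lower at 6 h (adjusted p = 0.0124) and 1.23-fold higher at 24 h (adjusted p = 0.000495), where the log2 value of 0.30 turned to -0.031 with scaling to total reads. Hspe1 was at 16.2, 21.6, 16.8 and 17.8 CPM without stimulus and 10.8, 7.84, 12.3 and 14 CPM with it at 6 h, 1.63-fold lower (adjusted p = 4.34e-05). By 24 h the values were 31.1, 29.7, 27.6 and 31.4 CPM without stimulus and 25.2, 23.2, 30.03 and 28.8 CPM with it, and the groups overlapped (adjusted p = 0.192). The 2 genes lie head to head on chromosome 1 and share 112 exonic nucleotides.

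**Figure D4:**
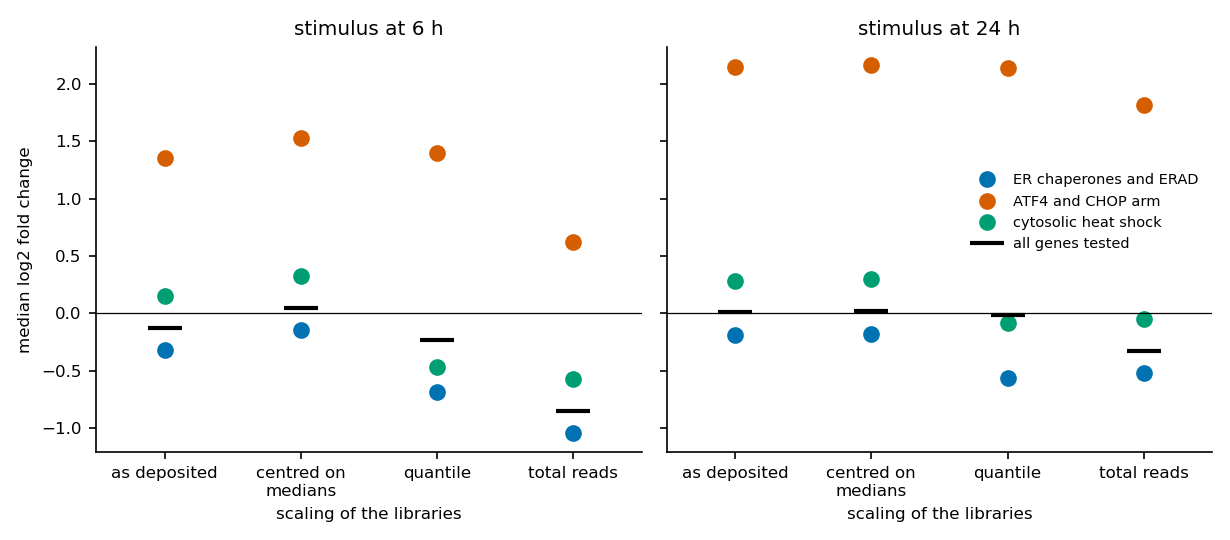
Median log2 fold change with the stimulus at 6 h (left) and 24 h (right) over the genes of the ER, the ATF4 and CHOP and the cytosolic heat shock groups, and over all genes tested (black bar), with libraries scaled as deposited, centred on medians, quantile normalized or scaled to total reads. The ATF4 and CHOP median stays above 0 (0.63 to 2.16) and the ER median below 0 (-0.15 to -1.05) throughout, and the heat shock median is above 0 as deposited and centred on medians, and below 0 with quantile normalization and total reads. With total reads the median over all genes is itself -0.86 at 6 h and -0.33 at 24 h.

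Time in culture was also compared, though the time and the handling of the libraries cannot be told apart. Without stimulus none of the 38 genes was higher and 5 were lower at 24 h than at 6 h, where 13.2% of all genes tested were called higher and 7.76% lower. The 5 were Asns (log2 -1.84, SE 0.11), Trib3 (-1.81, SE 0.12), Chac1 (-1.65, SE 0.12), Hspa1a (-2.34, SE 0.26) and Hspa1b (-1.42, SE 0.16), all with no overlap between the times and the same count under each scaling. Ddit3, Ppp1r15a and Atf4 had values of -0.12, -0.05 and -0.24 and overlapped between the times. The fold changes of Trib3, Asns, Chac1, Hspa1a and Hspa1b with the stimulus at 24 h are therefore taken against a lower unstimulated level than at 6 h. For Hspa1a this level was a mean of 0.603 CPM at 24 h against 2.74 CPM at 6 h, and its stimulated mean was 4.49 against 8.56 CPM. ER genes without stimulus had a median of 0.22, with the largest values for Calr (0.73), Sdf2l1 (0.64) and Pdia4 (0.56), and none was called. The sums of neutrophil, dendritic cell and B cell markers were also higher in the unstimulated libraries at 24 h than in those at 6 h. Of these markers, Mpo, Elane, Zbtb46 and Cd79a overlapped between the times, and Xcr1 was lower at 24 h. The part of other cells in the values was not tested.

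With stimulus 5 genes were higher and 4 lower at 24 h than at 6 h, where 16.5% of all genes were called higher and 17.2% lower. Those higher were Dnajb9 (log2 1.55, SE 0.11), Hsph1 (1.502, SE 0.11), Hsf1 (1.30, SE 0.09), Hspe1 (1.28, SE 0.11) and Calr (1.13, SE 0.05). Those lower were Hspa1b (-1.62, SE 0.16), Atf6 (-1.55, SE 0.06), Chac1 (-1.34, SE 0.12) and Asns (-1.12, SE 0.11). Trib3 was at -0.0085 (SE 0.12), and at 0.36 with scaling to total reads. The call was lost for Asns under quantile normalization (-0.64) and scaling to total reads (-0.75), for Chac1 under scaling to total reads (-0.97) and for Calr when libraries were centred on medians (0.96). By total reads the counts were 12 higher and 2 lower, where 26.5 and 11.7% of all genes were called, and centring on medians gave 4 higher and 6 lower, where 12.7 and 20.8% were.

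The stimulus effect itself differed between the times for 7 genes, with 6 larger and 1 smaller at 24 h, where 13.3% of all genes were called larger and 18.2% smaller. The 6 were Trib3 (difference of log2 values 1.81, SE 0.17), Hsph1 (1.46, SE 0.15), Hspa1a (1.42, SE 0.37), Hsf1 (1.26, SE 0.13), Dnajb9 (1.16, SE 0.16) and Ddit3 (1.06, SE 0.17), with adjusted p-values of 0.00367 or less by limma. For Hsph1, Hsf1 and Dnajb9 the difference joined a fall at 6 h to no call at 24 h, and for Trib3, Ddit3 and Hspa1a it joined 2 rises. From 6 to 24 h Trib3 changed by a log2 value of -0.0085 with the stimulus and -1.81 without it. The values were -0.92 and -2.34 for Hspa1a, and 0.94 and -0.12 for Ddit3. The larger effect at 24 h thus went with a lower unstimulated level for Trib3 and Hspa1a, and with a higher stimulated level for Ddit3. Atf6 was the 1 smaller. The value for Ddit3 fell under the 2-fold minimum without library 2 (0.99), library 10 (0.90) or library 45 (0.98), and when libraries were centred on medians (0.91). That for Hspa1a was 0.46 on the log2(CPM + 1) scale, that for Dnajb9 was 0.92 and that for Atf6 -0.84 under quantile normalization, and none of these was called. With scaling to total reads the counts were 9 larger and none smaller, where 25.3 and 12.3% of all genes were called.

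The genotypes were compared with Nfam1 as the check of the labels. At 6 h without stimulus Nfam1 was at 432 and 408 CPM in NFAM1+/+ and 299 and 321 CPM in NFAM1-/- libraries, a log2 change of -0.44 (adjusted p = 0.0514). With stimulus at 6 h it was at 129 and 133 CPM in NFAM1+/+ and 135 and 127 CPM in NFAM1-/- libraries. At 24 h, by title, it was at 463 and 495 CPM against 441 and 391 CPM without stimulus and at 271 and 252 CPM against 201 and 223 CPM with it. Reads per gene cover the exons that the deletion leaves, so they check the genotype only weakly.

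None of the 38 genes was called between the genotypes in any of the 4 conditions by limma with Benjamini-Hochberg adjustment. Of all genes tested, 0.0861% were called in unstimulated libraries at 6 h, 0% in stimulated libraries at 6 h, 0.289% in unstimulated libraries at 24 h and 0.579% in stimulated libraries at 24 h, by the genotype of the title. At an unadjusted p under 0.05, 7 of the 38 genes passed in each of the 4 comparisons, where 1289, 1862, 1397 and 1988 of 12782 genes did in the same order. By the genotype of the tag, 0 of the 38 were called at 24 h as well, where 2 of all genes were called without and 3 with the stimulus, and without the 4 libraries with differing labels 0 of the 38 were, where 4 and 14 of all genes were called.

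At 6 h without stimulus 33 of the 38 genes had negative values in NFAM1-/-, where 6231 of all 12782 genes tested did. The 33 included 15 of the 18 ER genes and both mitochondrial genes. All 6 genes of the ATF4 and CHOP arm and all 8 heat shock genes were negative, with medians of -0.34 and -0.19 against 0.01 over all genes tested. The largest were Hspa1b at 7.28 and 5.65 CPM in NFAM1+/+ against 2.79 and 3.99 CPM in NFAM1-/- libraries (log2 -0.94, 95% interval -1.42 to -0.46, adjusted p = 0.118) and Asns at 68.0 and 79.7 against 48.2 and 39.5 CPM (log2 -0.75, 95% interval -1.09 to -0.42, adjusted p = 0.0711). Library 2, of NFAM1+/+, was the highest of the 4 for all 6 genes of the arm and for the heat shock genes other than Hspa1a and Hspa1b. Without library 2 the medians were -0.128 for the arm and -0.129 for the heat shock genes. With stimulus at 6 h the 6 genes were again negative, with a median of -0.18 (-0.077 without library 26) and an adjusted p of at least 0.248.

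Hspa1a and Hspa1b had negative values in all 4 conditions by title, from -0.32 (Hspa1a at 6 h without stimulus) to -0.94, and none was called. For Hspa1a at 24 h the value by title was -0.90 without and -0.79 with the stimulus, and by tag it was 0.73 and 0.22, so its direction rests on the label used. For Hspa1b at 24 h it was -0.44 and -0.73 by title, 0.067 and -0.0046 by tag, and -0.38 and -0.73 without the 4 libraries. In stimulated libraries at 24 h Chac1 was at 14.8 and 18.4 CPM in NFAM1-/- and 11.2 and 10.1 CPM in NFAM1+/+ by title (log2 0.63, 95% interval 0.26 to 1.00, adjusted p = 0.0764 by limma), and by tag its value was -0.08. In unstimulated libraries at 24 h Ern1 was at 106 and 93.3 CPM in NFAM1-/- and 67.3 and 83.5 CPM in NFAM1+/+ by title (log2 0.41, 95% interval 0.18 to 0.63, adjusted p = 0.0964), and by tag its value was -0.07. The 95% intervals reached past a 2-fold difference for Hspa1a in all 4 conditions, for Hspa1b in all but the unstimulated libraries at 24 h, and for Asns in the unstimulated libraries at 6 h. For these genes a 2-fold difference between the genotypes could have been missed.

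**Figure D5:**
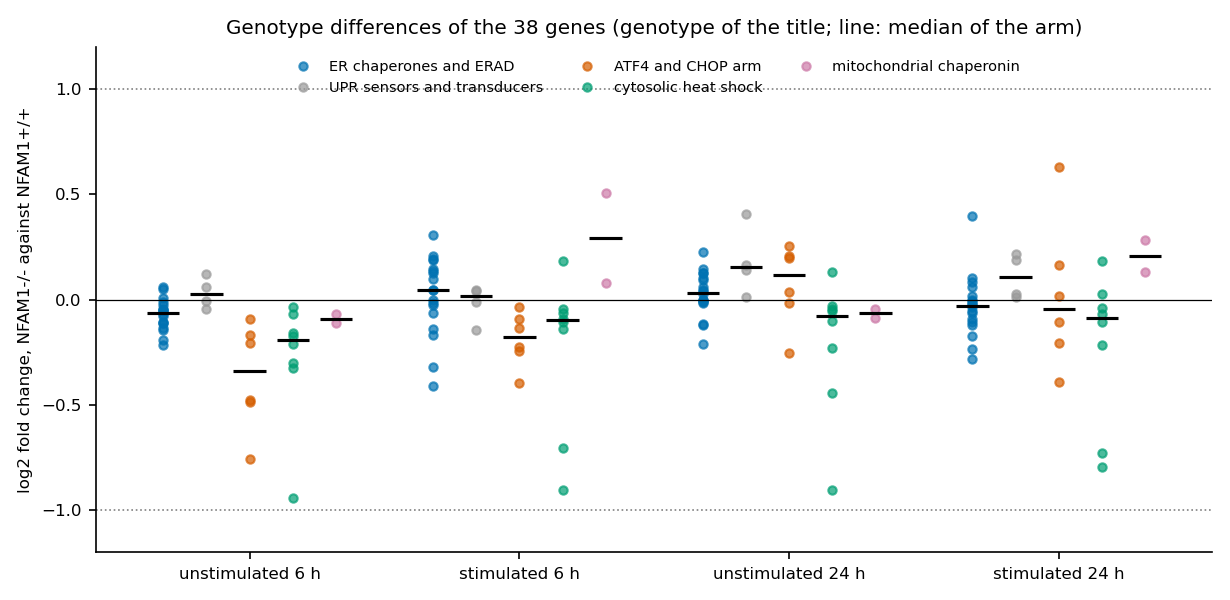
Log2 fold change of NFAM1-/- against NFAM1+/+ (genotype of the title) for the 38 genes in the 4 conditions, 1 point per gene, coloured by group in the order ER, sensors, ATF4 and CHOP, heat shock, mitochondrial. The black line is the median of the group and the dotted lines mark 2-fold. All points lie between the dotted lines, and the lowest are Hspa1a and Hspa1b, down to -0.94.

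Other genes of the same pathways were read from 4 lists. Of all genes tested, 19.1% were called higher and 20.6% lower with the stimulus at 6 h, and 14.6 and 18.7% at 24 h. Without stimulus, 13.2% were called higher and 7.76% lower at 24 h than at 6 h. Of 37 tested genes around ATF4 and the integrated stress response, 16 rose and none fell at 6 h and 18 rose and 2 fell at 24 h, with medians of 0.83 and 0.88, and without stimulus 13 were lower and 1 higher at 24 h than at 6 h. The largest were Stc2 (log2 3.79 at 6 h and 7.68 at 24 h), a secreted glycoprotein that had a mean of only 0.0234 to 2.41 CPM, Wars (5.03 and 4.32), a tryptophan tRNA synthetase that IFN-γ is known to induce by itself, and Eif2ak2 (4.72 and 1.98), the interferon-induced kinase PKR. Among the others that rose at both times were Nupr1, a stress-induced chromatin protein, at 82.7 ± 12.4 against 252 ± 6.36 CPM at 6 h (SD, n = 4) and Mthfd2, of mitochondrial folate metabolism, at 166 ± 28.0 against 545 ± 8.99 CPM. The 2 that fell at 24 h were Atf3, which had risen at 6 h, and Eif2ak4, the amino acid sensor GCN2.

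Of 50 tested genes of ER translocation, glycosylation and degradation, none rose at either time, 1 fell at 6 h (Srprb, a subunit of the receptor for the signal recognition particle, log2 -1.14) and 3 fell at 24 h. These were Pdia5 (-1.79, at 2.01 against 0.576 CPM), Txndc5 (-1.55) and Erp29 (-1.14), which all take part in folding in the ER. The medians were -0.17 and -0.10. Of 39 tested cytosolic chaperones and cochaperones, 4 rose and 3 fell at 6 h and 3 rose and 1 fell at 24 h. For this and the other lists, the shares of all genes called higher and lower were 19.1 and 20.6% at 6 h. They were 14.6 and 18.7% at 24 h. Hspa2, an HSP70 known from testis, rose most (log2 3.50 at 6 h and 1.23 at 24 h), followed by Dnaja2 (1.75 and 1.24), an HSP40, and Hspb6, a small heat shock protein, fell at 6 h (-1.73). Of 11 mitochondrial chaperones and proteases, none rose and 4 fell at 6 h and 1 rose and none fell at 24 h, with medians of -0.43 and 0.45. The largest were the protease subunit Clpp (-1.73 at 6 h and 0.72 at 24 h), the cochaperone Grpel2 (-1.65 and 0.12) and the protease Afg3l2 (-1.42 and -0.29).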

How the data were processed

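The authors deposited 1 table of log2 CPM, made per the study's methods from unstranded paired-end poly(A) reads by FastQC, STAR, Rsubread and edgeR normalization, and per the labels' processing notes on GRCm39/mm39. Each value gives back a whole number of reads (100% within 0.05), plus 0.5, over a scaled library size. No count model was run on them in the main fit. As 1 alternative, limma's voom took weights from the recovered reads. All 16 libraries were fitted in 1 limma 3.58.1 model of 8 groups (R 4.3.3; 8 residual degrees of freedom; variance trend), on the genes that reached 1 CPM in 2 or more libraries, and called at 2-fold and a Benjamini-Hochberg adjusted p under 0.05 over 12782 genes. The fit was tested on simulated data. The 38 members, the groups and the lists were chosen with earlier results of these data known, so lists get counts and medians only. Values in every library are given for up to 4 members per group with the largest stimulus effect and for Xbp1, Atf4, Ddit3 and Hsf1; Hspa5, Chac1 and Edem1 were added after their values were seen. From other lists the 3 called genes with the largest effect are named, others being chosen after their values were seen. Lengths, positions and exon overlaps are from GENCODE vM21 on GRCm38, another build than the authors' and used for annotation only. A length counts every exonic base of any transcript of the gene, so orders per kilobase depend on the transcripts annotated. Of the symbols, 17 appear as dates. Alternatives covered the filter, the log offset, 3 other scalings, the variance model, the threshold, the genotype label and each library left out.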

Additional observations from a re-analysis of the deposited data

Results flagged for a closer look

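Of 152 sets of 4 libraries of 1 gene in 1 condition, 10 held a library farther from the others than Dixon's 95% limit, where chance flags about 1 in 20. In stimulated libraries at 6 h, library 26 was highest for Ddit3, at 60.8 CPM against 36.0 to 38.8 CPM in the others, and lowest for Hsf1, at 13.8 against 18.4 to 19.3 CPM. Library 2 was highest for Ddit3 without stimulus at 6 h, at 21.5 CPM. Also without stimulus at 6 h, Dnajc3 was lowest in library 4 at 74.8 CPM and Sel1l was highest in library 1 at 141 CPM. Without stimulus at 24 h, library 43 was lowest for Sdf2l1 (37.6 CPM) and Creld2 (19.5 CPM), and library 46 was highest for Dnajb11 (102 CPM) and Eif2ak3 (48.7 CPM). With stimulus at 24 h, library 55 was lowest for Hsp90b1, at 188.8 CPM against 194.5 to 195.7 CPM in the others.

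The stimulus effect differed between 24 and 6 h for 7 genes by the interaction term of limma. The difference of log2 values was 1.81 for Trib3 (adjusted p = 5.53e-07), 1.46 for Hsph1 (1.20e-06), 1.42 for Hspa1a (0.00367), 1.26 for Hsf1 (1.36e-06), 1.16 for Dnajb9 (1.67e-05), 1.06 for Ddit3 (8.64e-05) and -1.24 for Atf6 (1.25e-08). For Trib3 and Hspa1a the stimulated level was not higher at 24 h than at 6 h (log2 -0.0085 and -0.92), and the unstimulated level was lower (-1.81 and -2.34).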

How the results depend on the processing

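No called gene reversed its direction under any alternative. Shares of all genes called under the same setting stand in brackets. Scaled to total reads, genes called higher and lower were 2 and 15 with the stimulus at 6 h (12.2 and 43.5%) and 12 and 2 with time under stimulus (26.5 and 11.7%), 9 were lower with the stimulus at 24 h (25.7%), and 0 effects were smaller at 24 h (12.3%). Quantile normalization gave 9 lower with the stimulus at 24 h (17.5%) and 0 smaller effects (15.2%). Without a minimum fold, higher and lower counts were 15 and 16 for the stimulus at 6 h (35 and 43.3%), 16 and 14 at 24 h (38.3 and 36.5%), 14 and 12 for time unstimulated (34.3 and 30.1%), 16 and 16 for time stimulated (39.7 and 36.7%) and 18 and 9 for stimulus by time (35.2 and 32%). Tested against a 1.2-fold change, 12 were higher at 6 h (27.8%), 11 lower at 24 h (27.9%), 9 higher with time unstimulated (22.4%), 16 and 10 with time stimulated (30 and 28.5%), and 11 and 8 for stimulus by time (26 and 25.4%).

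The ER median at 6 h was -0.69 (quantile), -0.15 (centred) and -1.05 (total reads), and -0.35 to -0.26 with 1 library left out; at 24 h it was -0.56 (quantile) and -0.52 (total). The ATF4 and CHOP median was 1.53 (centred) and 0.63 (total) at 6 h and 1.82 (total) at 24 h. The heat shock median at 6 h was 0.050 over genes with a mean of at least 5 CPM, 0.32 (centred), and reversed to -0.47 (quantile) and -0.58 (total); at 24 h it reversed to -0.088 and -0.049. For time under stimulus the ER median was 0.35 (quantile), 0.41 (total) and reversed to -0.14 (centred). The ATF4 and CHOP median was 0.36, 0.41 and reversed to -0.14 in the same order. The heat shock median was -0.19 at 5 CPM, -0.0063 (quantile), -0.48 (centred) and reversed to 0.065 (total). Over all genes tested, the medians (quantile, centred, total) were -0.23, 0.04 and -0.86 for the stimulus at 6 h and -0.02, 0.02 and -0.33 at 24 h. For time under stimulus they were 0.10, -0.13 and 0.41. The cause was not tested.

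Under total reads, the share of calls that were higher over all genes went from 48.1 to 21.9% (stimulus at 6 h), 43.9 to 30.4% (24 h), 49.0 to 69.3% (time, stimulated) and 42.1 to 67.4% (stimulus by time).

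No paired analysis was possible because the library numbers are unique to each library. An alternative chosen after seeing the data left out each library at 6 h for the genotype medians. Without stimulus the ATF4 and CHOP median was -0.51 to -0.13 and the heat shock median -0.29 to -0.13, and with it they were -0.20 to -0.077 and -0.16 to -0.070. Groups of 2 libraries limit what the genotype comparisons can detect.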
